A study of Mus musculus with 12 samples.

Results

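The multidomain BCL2 family is described here in mouse liver by 9 genes taken as a list of symbols and matched to their Ensembl identifiers. They are the prosurvival genes Mcl1, Bcl2, Bcl2l1, Bcl2l2, Bcl2a1b and Bcl2a1d and the effector genes Bax, Bak1 and Bok. All 9 were among the 40551 genes counted and among the 15070 that passed the filter on low counts. The rule for membership is the family and uses no measured value, though the members were chosen with earlier results of these data known. The comparisons ask whether loss of Mcl1 in hepatocytes is accompanied by a change in the transcripts of its relatives.

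BCL2 family proteins decide whether the outer mitochondrial membrane stays intact. Bax and Bak1 encode the effectors that form pores in it and so release cytochrome c to the apoptosome, while Bok encodes a related effector. The prosurvival proteins hold these effectors in check and are themselves neutralized by the BH3-only proteins. Hepatocytes are known to need MCL1 and BCL-XL, the product of Bcl2l1, for their survival.

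Bulk total RNA-seq libraries of 12 livers were analysed, 3 for each of 4 genotypes. WT livers carried neither deletion. In Mcl1Δhep livers (labelled Mcl1 KO), floxed Mcl1 was removed by Cre recombinase under the albumin promoter, which directs the deletion to hepatocytes. The paper reports that MCL1 staining in such livers was left mostly in nonparenchymal cells. Sting1-/- livers (labelled Sting1 KO) carried a germline loss of the DNA-sensing adaptor Sting1 and intact Mcl1, and Mcl1Δhep Sting1-/- livers (labelled Mcl1 Sting1 DKO) came from a cross of both lines. The labels give no age or sex, and the study used animals of both sexes. In the paper, the transcriptomes of WT and Mcl1Δhep livers are described as from the younger of the ages at which these mice were analysed.

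The libraries held 28826367 to 45266387 counts. Y-linked genes summed to 141 to 157 CPM (counts scaled to library size) in WT replicates 2 and 3 and in Mcl1Δhep Sting1-/- replicate 1, and to at most 0.187 CPM in the other libraries. No Mcl1Δhep or Sting1-/- liver was among those with Y-linked expression, so sex was not balanced in any of the comparisons made here. Its part cannot be fully told apart from that of genotype in any of them. A model with a term for Y-linked expression is given below. Small structured RNAs took 0.172 to 0.369% of the counts in WT livers but 0.283, 2.37 and 1.36% in Mcl1Δhep livers, and Mcl1Δhep replicate 3 held skeletal muscle transcripts. Hepatocyte markers summed to 100925 to 164684 CPM over the 12 libraries. Sting1 measured 2.11 to 2.53 CPM in WT livers and 1.16 to 2.70 in Sting1-/- livers, which overlapped, and 3.61 to 5.99 CPM in Mcl1Δhep and 1.90 to 2.53 CPM in Mcl1Δhep Sting1-/- livers, which did not (log2 fold change -1.05, SE 0.29, adjusted p = 0.134 with edgeR, called by DESeq2). The deleted part of the gene is not given in the sources used here, so these levels do not settle the label. The groups are therefore named as labelled.

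The family members carry short conserved coding stretches by which they bind one another. One of them, the BH3 core, is printed for 7 members as the coding strand from the GENCODE vM39 transcripts on GRCm39, with the codons of the core in capitals. It was located by its conserved leucine or methionine and its glycine and aspartate, and it is shown because it marks the part through which effectors are held by prosurvival partners.
Mcl1, exon 1, chr3:95566741-95566773, plus strand: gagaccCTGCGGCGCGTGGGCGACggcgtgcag
Bcl2, exon 1, chr1:106640305-106640337, minus strand: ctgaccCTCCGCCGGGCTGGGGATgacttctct
Bcl2l1, exon 2, chr2:152671617-152671649, minus strand: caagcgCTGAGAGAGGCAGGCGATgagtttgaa
Bcl2l2, exon 3, chr14:55121968-55122000, plus strand: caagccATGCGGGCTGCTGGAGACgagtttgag
Bax, exon 3, chr7:45115421-45115453, minus strand: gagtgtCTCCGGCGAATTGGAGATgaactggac
Bak1, exon 4, chr17:27241505-27241537, minus strand: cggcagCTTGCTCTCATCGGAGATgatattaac
Bok, exons 2 and 3, chr1:93614373-93616892, plus strand: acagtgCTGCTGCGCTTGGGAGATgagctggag

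No such match was found in Bcl2a1b or Bcl2a1d, which says only that these letters are not in their coding sequences. Both encode A1, a prosurvival protein known mainly from leukocytes, and they are near-identical copies on chromosome 9 (Bcl2a1d at 88605338 to 88613967 and Bcl2a1b at 89081262 to 89089889). Their coding sequences of 516 bases differ at 6 positions, counted from the first base of the start codon with the Bcl2a1b base first: G4T, T48C, A94C, G312A, C381G and T490A. The stretch around base 94 is shown because it holds 1 of the positions by which a read can tell these 2 copies apart, with the differing base in capitals. Another copy, Bcl2a1a, carries the same base as Bcl2a1d there.
Bcl2a1b, exon 1, chr9:89081482-89081530, plus strand: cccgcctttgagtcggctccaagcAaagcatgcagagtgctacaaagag
Bcl2a1d, exon 1, chr9:88613655-88613703, minus strand: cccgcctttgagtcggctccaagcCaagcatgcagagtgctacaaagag

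Of all 100-base windows of the main transcript, 30.9% in Bcl2a1b and 55.0% in Bcl2a1d were identical to a window of another copy. How the authors' counting treated such reads is not given in the sources used here, so the split of reads between these genes is uncertain, and a fit of Bcl2a1a, Bcl2a1b and Bcl2a1d summed as 1 gene is given beside them.

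Mcl1 was the member with the largest fall. It lies on chromosome 3 at 95566026 to 95570487 (ENSMUSG00000038612). Its level was 90.2, 102 and 104 CPM in WT livers and 27.9, 33.9 and 24.6 CPM in Mcl1Δhep livers. On the Sting1-/- background, it was 78.3, 90 and 76.9 CPM in the livers with intact Mcl1 and 18.1, 22.9 and 26.0 CPM in the livers with the deletion. The 6 livers with the deletion all lay below the 6 without it. The log2 fold change was -1.77 (SE 0.16, adjusted p = 0.000605, edgeR quasi-likelihood test) for Mcl1Δhep against WT and -1.87 (SE 0.16, adjusted p = 0.00145) for Mcl1Δhep Sting1-/- against Sting1-/-, so that 0.294 and 0.274 of the level remained. In bulk tissue, fewer cells of a type and less RNA per cell cannot be told apart, and the remaining reads can come from cells without Cre. The part of Mcl1 that the floxed allele loses is not given in the sources used here. Reads from a recombined allele can thus not be told apart from those of an intact allele. The difference between the 2 changes was -0.10 on the log2 scale (95% interval -0.60 to 0.39, adjusted p = 0.853).

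**Figure D1:**
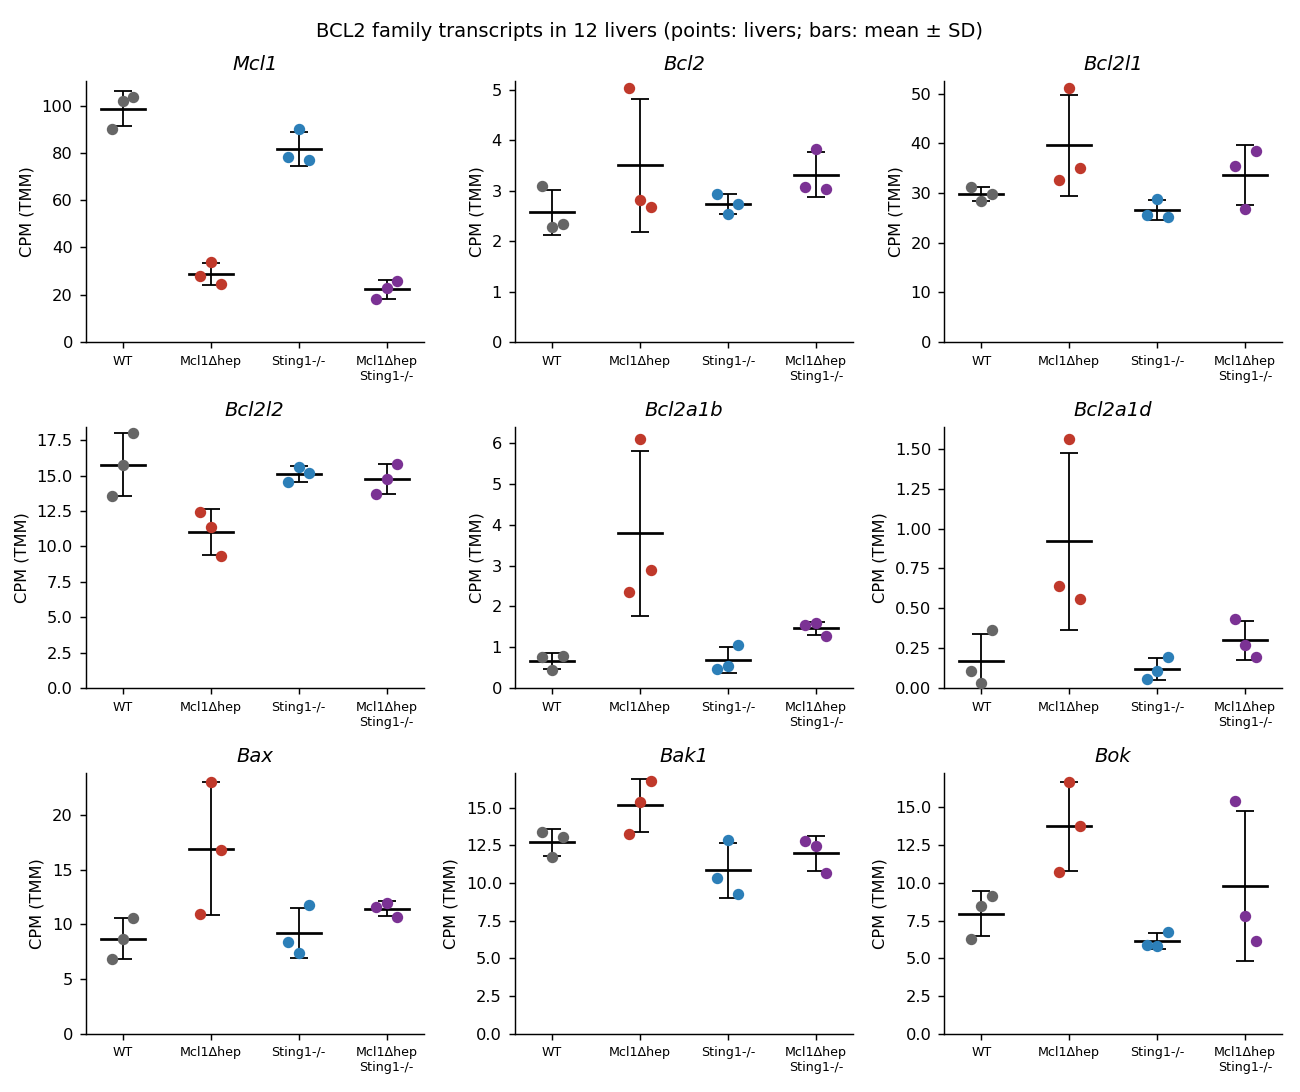
Level of each family member in CPM (vertical axis, from 0) in the 12 livers by genotype, with points for livers and bars for the mean ± SD of 3 livers. Mcl1 is lower in both groups with the deletion, and Bcl2a1b reaches 2.36 to 6.12 CPM in Mcl1Δhep livers against 0.445 to 0.792 in WT livers.

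Between Mcl1Δhep and WT livers, 5 of the 9 members passed the test at an adjusted p under 0.05, as did 20.2% of all genes tested. Bcl2a1b, Bcl2a1d and Bax were higher (10.8% of all genes were) and Mcl1 and Bcl2l2 were lower (9.43% of all genes were). Mcl1 is the deleted gene, so its fall in this and the other comparisons of the deletion is no result about its relatives. The median log2 fold change of the 9 members was 0.45, beside -0.005 over all genes tested. The 2 groups did not overlap for 5 higher members, which held for 16.2% of all genes, and for 2 lower members, which held for 17.1%.

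Bcl2l1 encodes BCL-XL, the other prosurvival protein on which hepatocytes depend, and was the most abundant relative of Mcl1 per length. Its level was 31.3, 28.5 and 29.8 CPM in WT livers and 32.6, 51.2 and 35.0 CPM in Mcl1Δhep livers, which did not overlap. The log2 fold change of 0.41 (SE 0.18, 95% interval 0.02 to 0.81) did not pass the test (adjusted p = 0.120). It passed when Mcl1Δhep replicate 1 was left out (0.54, adjusted p = 0.0394), and was 0.19 (adjusted p = 0.475) without Mcl1Δhep replicate 2 and 0.10 (adjusted p = 0.844) in a model with a term for the small-RNA share. On the Sting1-/- background, Bcl2l1 measured 25.6, 28.9 and 25.1 CPM with intact Mcl1 and 35.5, 26.9 and 38.4 CPM with the deletion, and these groups overlapped (log2 fold change 0.34, SE 0.18, adjusted p = 0.534).

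Bcl2l2, which encodes the prosurvival protein BCL-W, fell in Mcl1Δhep livers. It measured 13.6, 15.8 and 18 CPM in WT livers and 12.4, 11.3 and 9.30 CPM in Mcl1Δhep livers, without overlap. The log2 fold change was -0.51 (SE 0.14, adjusted p = 0.0287). The call was lost when WT replicate 2 (adjusted p = 0.0818), WT replicate 3 (0.113), Mcl1Δhep replicate 2 (0.0778) or Mcl1Δhep replicate 3 (0.0823) was left out, with the compared groups fitted alone (0.130), and in models with a term for Y-linked expression (0.116) or for the small-RNA share (0.220). On the Sting1-/- background, Bcl2l2 was 14.5 to 15.7 CPM without the deletion and 13.7 to 15.9 CPM with it, a log2 difference of -0.03 (95% interval -0.34 to 0.28). A readthrough gene over Bcl2l2 and Pabpn1, Gm20521, shares 594 of the exon bases of Bcl2l2 and has none of its own, in the annotation used here, yet held 342 to 592 counts per library. How reads in shared exons were counted is not given in the sources used here.

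Bcl2, the founding member of the family, was low throughout, at 2.28 to 3.09 CPM in WT livers, 2.67 to 5.03 in Mcl1Δhep livers, 2.55 to 2.94 in Sting1-/- livers and 3.04 to 3.82 in Mcl1Δhep Sting1-/- livers. The highest value, 5.03 CPM, came from Mcl1Δhep replicate 1, and the other 2 Mcl1Δhep livers lay within the WT range. The log2 fold change against WT was 0.45 (SE 0.26, adjusted p = 0.215) and fell to 0.10 when Mcl1Δhep replicate 1 was left out.

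The A1 copies were the prosurvival genes that rose. Bcl2a1b measured 0.765, 0.445 and 0.792 CPM in WT livers and 2.36, 6.12 and 2.89 CPM in Mcl1Δhep livers, from 15 to 29 and 93 to 200 counts. Mcl1Δhep replicate 2 was the highest of the 12 libraries, and the lowest Mcl1Δhep library was still above each WT library. The log2 fold change was 2.41 (SE 0.43, adjusted p = 0.00384), and 2.33 (adjusted p = 0.00455) with the 3 copies summed as 1 gene. Bcl2a1b passed the test with each of the 12 libraries left out in turn (adjusted p of 0.00144 to 0.0241). In a model with a term for the small-RNA share, it did not (1.43, adjusted p = 0.0865). A readthrough gene over Bcl2a1b and Mthfs, Gm29094, shares 401 exon bases, 48.5% of those of Bcl2a1b, and held 135 to 308 counts per library.

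Bcl2a1d moved with it at lower counts, 1 to 11 in WT livers and 18 to 51 in Mcl1Δhep livers. Its log2 fold change was 2.17 (SE 0.70, adjusted p = 0.0276). The call was lost without WT replicate 1 (adjusted p = 0.0767), WT replicate 2 (0.0926) or Mcl1Δhep replicate 2 (0.123), with the 2 groups fitted alone (0.0780) and in the model with the small-RNA term (0.322). The other copy, Bcl2a1a, had 3 to 10 counts in WT livers and 19 to 28 in Mcl1Δhep livers (log2 fold change 1.51, SE 0.46, adjusted p = 0.0229).

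Leukocyte markers moved with the A1 copies. All 8 on the list rose in Mcl1Δhep livers against WT, with a summed level of 84.7 to 115 CPM in WT, 189 to 275 in Mcl1Δhep, 91.8 to 127 in Sting1-/- and 151 to 165 in Mcl1Δhep Sting1-/- livers. Ptprc, the pan-leukocyte phosphatase CD45, rose by a log2 fold change of 0.80 (SE 0.20, adjusted p = 0.0178). Of 7 neutrophil markers 6 could be tested and all 6 rose, with a sum of 3.11 to 4.75 CPM in WT and 10.3 to 23.9 CPM in Mcl1Δhep livers, while Ly6g had at most 3 counts. Of the macrophage markers 4 of 8 rose, and of the T and NK cell markers 3 of 6 tested. None of the 4 B cell, 5 cholangiocyte or 5 endothelial markers passed the test, and none had an unadjusted p under 0.05 or a DESeq2 call. Stellate cell markers rose in 3 of 6 cases, and DESeq2 called 4 as higher. Of 9 hepatocyte markers 1 fell with edgeR, while 5 had an unadjusted p under 0.05. DESeq2 called 2 hepatocyte markers as higher (Ass1 and Tat) and 2 as lower (Apob and Cyp2e1).

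The log2 level of Bcl2a1b minus the mean log2 level of the 8 leukocyte markers was -4.16 to -3.68 in WT livers, -3.20 to -2.39 in Mcl1Δhep livers, -4.51 to -3.63 in Sting1-/- livers and -3.67 to -3.41 in Mcl1Δhep Sting1-/- livers. The Mcl1Δhep libraries thus held more Bcl2a1b per leukocyte marker transcript than any other library. For Bcl2a1d, the difference was -6.23 to -4.84 in WT and -5.08 to -4.30 in Mcl1Δhep livers, which overlapped. For Bcl2, which leukocytes also express, the same difference was -2.44 to -1.79 in WT livers and -3.49 to -2.14 in Mcl1Δhep livers. On the Sting1-/- background, 7 of the 8 markers were higher without overlap in the livers with the deletion, and edgeR and DESeq2 each called 0, with 5 at an unadjusted edgeR p under 0.05. The part of leukocyte number in the Bcl2a1b result was not tested.

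**Figure D2:**
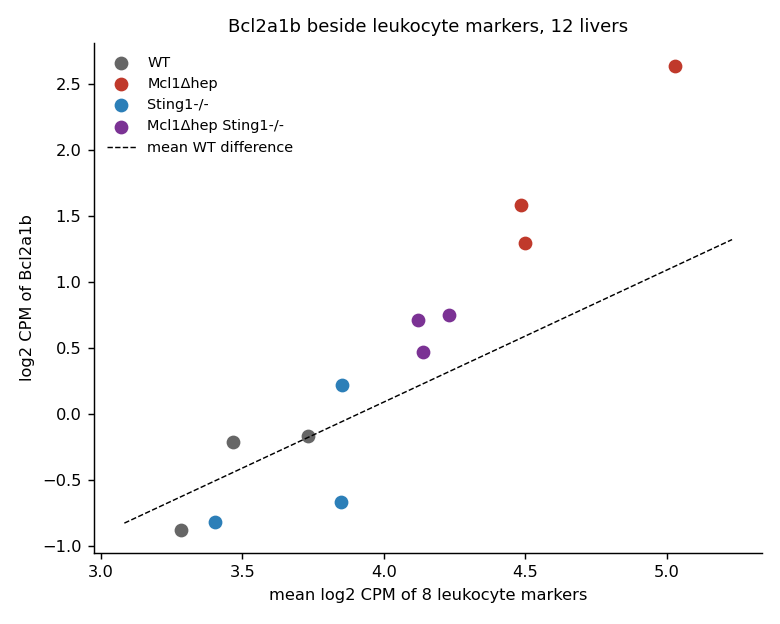
Level of Bcl2a1b (vertical axis, log2 CPM) against the mean level of 8 leukocyte markers (horizontal axis, log2 CPM), 1 point per liver, with a dashed line at the mean WT difference. The Mcl1Δhep livers lie farthest above the line, and the Mcl1Δhep Sting1-/- livers lie above it in the range -3.67 to -3.41, beside Sting1-/- replicate 3 (-3.63) and WT replicate 1 (-3.68).

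Of the effectors, Bax rose. It measured 6.86, 8.66 and 10.6 CPM in WT livers and 10.9, 23.1 and 16.8 CPM in Mcl1Δhep livers, so that the groups were separated by the narrow gap between WT replicate 3 and Mcl1Δhep replicate 1. The log2 fold change was 0.96 (SE 0.26, adjusted p = 0.0255). The call was lost without WT replicate 1 (adjusted p = 0.0745), WT replicate 2 (0.0797) or Mcl1Δhep replicate 2 (0.116), and with the 2 groups fitted alone (0.0724) or with the Y-linked term in the model (0.0511). With the small-RNA term, the change was 0.14 (adjusted p = 0.716). The libraries with the largest shares of these RNAs, Mcl1Δhep replicates 2 and 3, were also those with the highest Bax, and the part of this share in the result was not tested beyond that model. The readthrough gene Gm45808 shares 192 exon bases, 10.3% of those of Bax, and held 885 to 1918 counts per library.

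Bok, whose product can act apart from BAX and BAK, measured 6.30, 8.48 and 9.11 CPM in WT livers and 10.8, 16.7 and 13.8 CPM in Mcl1Δhep livers, without overlap, at an adjusted p of 0.0772 (log2 fold change 0.79, SE 0.30). It passed the test with DESeq2 (0.81, adjusted p = 0.0393), with the Y-linked term in the model (1.33, adjusted p = 0.00939), without Mcl1Δhep replicate 1 (0.94, adjusted p = 0.0438), and without Mcl1Δhep Sting1-/- replicate 1 (0.79, adjusted p = 0.0222) or 3 (0.80, adjusted p = 0.0482). With the small-RNA term, its change was 0.26 (adjusted p = 0.733).

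Bak1 overlapped between the groups, at 11.7 to 13.4 CPM in WT and 13.3 to 16.8 CPM in Mcl1Δhep livers (log2 fold change 0.26, SE 0.15, adjusted p = 0.238). It shares 437 exon bases, 18.2% of its own, with Ggnbp1 on the other strand, which had 77 to 156 counts where Bak1 had 356 to 641, and 177 with Gm50253 (261 to 464 counts). Without the strand setting of the counting, the reads of these genes cannot be told apart.

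**Figure D3:**
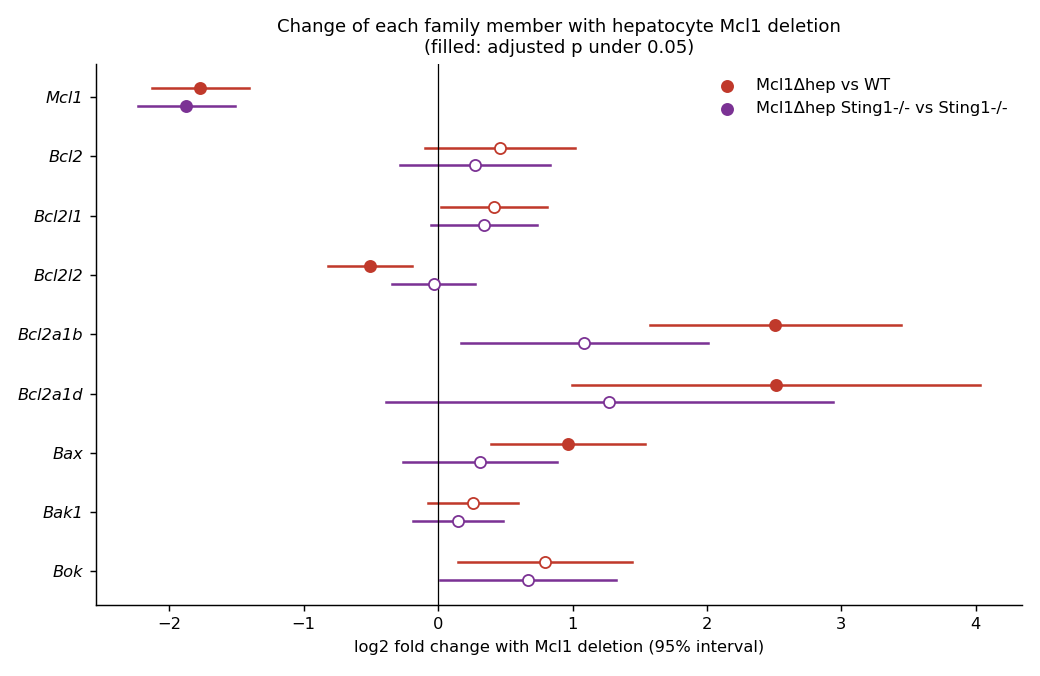
Log2 fold change of each member with Mcl1 deletion (horizontal axis) and its 95% interval from the quasi-likelihood fit without a prior count, for Mcl1Δhep against WT livers and for Mcl1Δhep Sting1-/- against Sting1-/- livers, 3 livers per group. Filled points passed the test, which are 5 members in the first comparison and Mcl1 alone in the second.

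**Figure D4:**
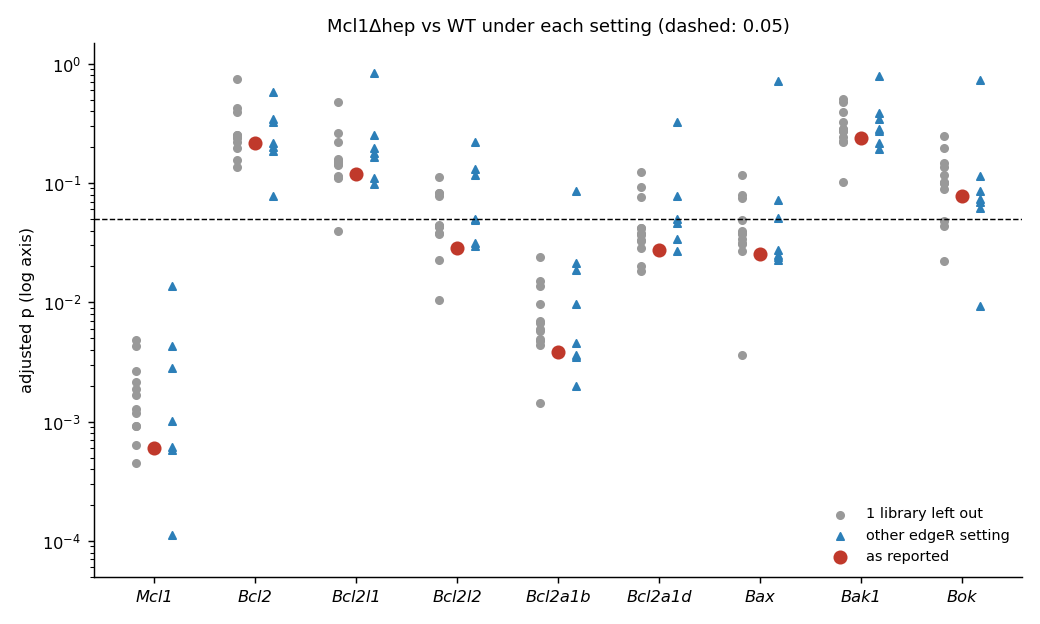
Adjusted p of each member for Mcl1Δhep against WT livers (log axis) as reported, with each of the 12 libraries left out, and under the other edgeR settings, with DESeq2 not drawn. Mcl1 stayed under 0.05 in every fit drawn, whereas Bcl2l1, Bcl2l2, Bcl2a1b, Bcl2a1d, Bax and Bok lay on both sides of it, Bcl2a1b in 1 fit only, that with the small-RNA term.

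On the Sting1-/- background, Mcl1 was the member that passed the test with its deletion, 1 of 9, beside 0.803% of all genes. None of its relatives passed. The groups did not overlap for 2 higher members, Bcl2a1b and Bcl2 (11.5% of all genes), and for 1 lower member, Mcl1 (10.8% of all genes). Bcl2a1b measured 0.465, 0.531 and 1.06 CPM without the deletion and 1.54, 1.58 and 1.29 CPM with it (log2 fold change 1.03, SE 0.42, 95% interval 0.17 to 2.01, adjusted p = 0.335). Bcl2 changed by 0.27 (SE 0.26, adjusted p = 0.784). Bax measured 8.41, 7.40 and 11.8 CPM without the deletion and 11.6, 12 and 10.7 CPM with it (0.31, SE 0.26, adjusted p = 0.756). Bok reached 15.4 CPM in Mcl1Δhep Sting1-/- replicate 1 but 7.80 and 6.15 CPM in the other 2 livers, beside 5.81 to 6.73 CPM without the deletion (0.66, SE 0.30, adjusted p = 0.429).

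Averaged over both Sting1 backgrounds, the deletion changed Mcl1 by -1.82 (SE 0.12, adjusted p = 4.01e-05). Bcl2a1b (1.72, SE 0.30, adjusted p = 0.00250), Bcl2a1d (1.58, SE 0.52, adjusted p = 0.0272), Bax (0.64, SE 0.19, adjusted p = 0.0346) and Bok (0.73, SE 0.21, adjusted p = 0.0344) rose, beside 9.9% of all genes, and Mcl1 alone of the members fell, beside 6.83%. Mcl1 and Bcl2a1b passed the test with each of the 12 libraries left out. Bcl2a1d kept its call in 5 of these 12 fits (adjusted p of 0.0113 to 0.0714), and lost it without WT replicate 1 or 2, Mcl1Δhep replicate 2, Sting1-/- replicate 1 or 2, or Mcl1Δhep Sting1-/- replicate 1 or 2. Bax kept its call in 4 (0.00630 to 0.0874), and lost it without the same libraries or Mcl1Δhep replicate 3. Bok kept its call in 3 (0.0121 to 0.0869), namely without Mcl1Δhep replicate 1 or Mcl1Δhep Sting1-/- replicate 2 or 3. The Bok change was 0.48 (adjusted p = 0.0606) without Mcl1Δhep Sting1-/- replicate 1, the liver of its group with the highest Bok and with Y-linked expression. With the small-RNA term, Bcl2a1d (1.20, adjusted p = 0.0763), Bax (0.31, adjusted p = 0.0888) and Bok (0.51, adjusted p = 0.153) each lost their call. Bcl2l1 (0.38, SE 0.13, 95% interval 0.10 to 0.66) had an adjusted p of 0.0637, and 0.0342 with DESeq2. Bcl2l2 (-0.27, SE 0.10) had an adjusted p of 0.0851.

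The test of whether the Mcl1 effect differed between the Sting1 backgrounds called 0% of all genes and 0 of the 9 members with edgeR. At an unadjusted p under 0.05 it gave 2165 genes and 2 members, and DESeq2 called 172 genes and 0 members. Without Mcl1Δhep replicate 1, edgeR called 1574 genes and again 0 members. The 2 members were Bcl2a1b, whose rise was smaller by 1.38 log2 units on the Sting1-/- background (SE 0.59, adjusted p = 0.322), and Bcl2l2 (0.47, SE 0.20, adjusted p = 0.329). The calls for Bcl2a1b, Bcl2a1d, Bax and Bcl2l2 in Mcl1Δhep livers, without one on the Sting1-/- background, are therefore not shown to differ between backgrounds. The 95% interval for Bax, -1.46 to 0.15, and for Bcl2a1d, -3.52 to 1.04, included changes of either direction.

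Between the 2 groups with deleted Mcl1, edgeR called 0% of all genes and 0 members, with 3098 genes and 6 of the 9 members at an unadjusted p under 0.05. DESeq2 called 671 genes and 1 member. That member was Bcl2a1b, at -1.34 with edgeR (SE 0.40, adjusted p = 0.139) and -1.38 with DESeq2 (adjusted p = 0.0322) for Mcl1Δhep Sting1-/- against Mcl1Δhep. Of the 8 leukocyte markers, DESeq2 called 4 as lower in the same comparison, and their part in the Bcl2a1b value was not tested. Bcl2l2 was higher without overlap (8.97% of all genes) and Bcl2a1b, Bcl2a1d and Bak1 were lower without overlap (9.28% of all genes). Leaving out Mcl1Δhep replicate 1 gave 3108 genes, and the members called were Bcl2a1b (-1.58, adjusted p = 0.0197), Bax (-0.81, adjusted p = 0.0307) and Bcl2l2 (0.51, adjusted p = 0.0320). Both this comparison and that with WT use the Mcl1Δhep libraries, so they are not independent.

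Between Sting1-/- and WT livers, 0% of all genes and 0 members passed the test with edgeR, with 821 genes and 0 members at an unadjusted p under 0.05 and 49 genes and 0 members with DESeq2. Mcl1 was the 1 member without overlap, lower in Sting1-/- livers (5.46% of all genes), with a log2 fold change of -0.27 (SE 0.16, adjusted p = 0.998).

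Levels of different genes were compared as TPM, which corrects for exon length and library size but, unlike CPM here, carries no TMM scaling. Sums and differences of TPM between libraries thus also depend on the rest of each library, small structured RNAs included. Bcl2l1, without overlap between WT and Mcl1Δhep livers in CPM, overlapped in TPM, at 19.4 to 23.1 and 22.1 to 30.6. The part of the small-RNA share in the TPM values was not tested. In WT livers, Mcl1 stood at 101 ± 2.93 TPM (SD, n = 3), Bcl2l1 at 20.9 ± 1.94, Bcl2l2 at 10.5 ± 1.08, Bcl2a1b at 2.91 ± 0.895, Bcl2 at 1.01 ± 0.227 and Bcl2a1d at 0.684 ± 0.700. Mcl1 made up 72.1 to 75.9% of the summed prosurvival TPM in WT livers and 69.9 to 72.9% in Sting1-/- livers. In Mcl1Δhep livers this share was 31.1 to 38.5%, and in Mcl1Δhep Sting1-/- livers 29.9 to 38.2%. Bcl2l1 made up 30.5 to 34.1% and 30.5 to 39.9% there, ranges that overlapped those of Mcl1. The order of the members changed as well in Mcl1Δhep livers, where Bcl2a1b reached 15.3 ± 6.44 TPM, above Bcl2l2 at 7.19 ± 2.08. In Mcl1Δhep Sting1-/- livers, Bcl2a1b stayed below Bcl2l2, at 6.80 ± 1.06 and 10.4 ± 0.634 TPM.

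The summed level of the 5 other prosurvival genes was 32.5 to 37.9 TPM in WT and 42.1 to 66.3 TPM in Mcl1Δhep livers, a mean difference of 17.8 TPM beside a loss of Mcl1 of 72.7 TPM, or 24.5% of it. Without Mcl1Δhep replicate 2, the highest of these livers, the difference was 11.5 TPM or 15.7%. Most of this difference lay in the A1 copies. Bcl2a1b and Bcl2a1d together went from 3.60 ± 1.44 to 18.9 ± 8.18 TPM, and Bcl2, Bcl2l1 and Bcl2l2 together from 32.4 ± 1.71 to 34.9 ± 5.44 TPM, where the difference of 2.50 TPM was smaller than the spread between livers and ranged over 0.919 to 5.65 TPM with 1 of the 6 livers left out. On the Sting1-/- background, the 5 genes summed to 29.3 to 33.0 TPM without the deletion and 42.5 to 46.4 TPM with it, a difference of 13.1 TPM beside a loss of Mcl1 of 55.8 TPM, or 23.5%. There, Bcl2, Bcl2l1 and Bcl2l2 together went from 28.3 ± 1.82 to 36.6 ± 2.74 TPM and the A1 copies from 3.31 ± 1.60 to 8.12 ± 1.47 TPM.

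The sum over all 6 prosurvival genes was 135 to 141 TPM in WT, 64.9 to 96.1 in Mcl1Δhep, 106 to 122 in Sting1-/- and 66.2 to 72.1 in Mcl1Δhep Sting1-/- livers. The effectors Bax, Bak1 and Bok summed to 44.9 to 51.8, 65.4 to 78.8, 38.2 to 44.1 and 45.9 to 68.3 TPM in the same order. Prosurvival transcripts per effector transcript were thus 2.91 ± 0.160 in WT and 1.15 ± 0.205 in Mcl1Δhep livers, and 2.74 ± 0.292 in Sting1-/- and 1.23 ± 0.309 in Mcl1Δhep Sting1-/- livers. Without Mcl1, the same ratio for the other 5 prosurvival genes was 0.761 ± 0.0721, 0.750 ± 0.132, 0.773 ± 0.0415 and 0.794 ± 0.168 in that order, with overlap between all groups. These sums are descriptions of transcripts across all cells of the liver, count all remaining Mcl1 reads as prosurvival, and carry no test.

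**Figure D5:**
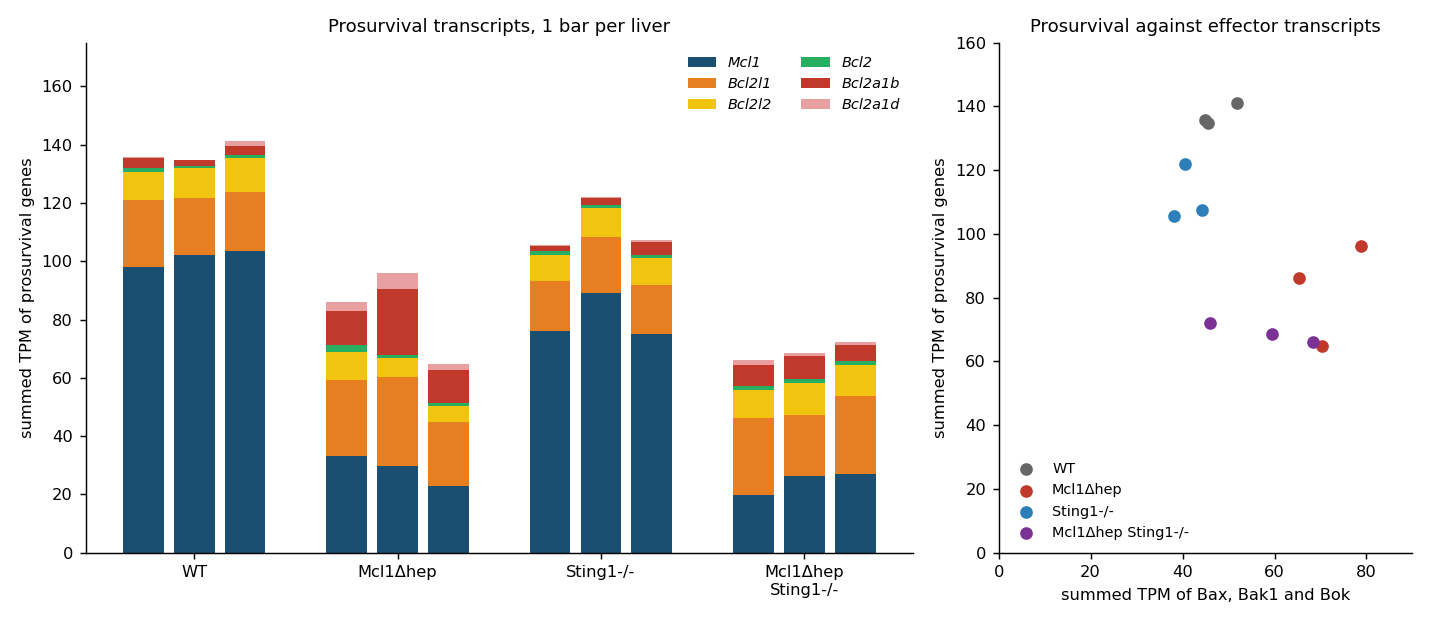
Left, summed TPM of the 6 prosurvival genes (vertical axis, from 0) with 1 bar per liver and colors for genes. Right, the same sum against the summed TPM of Bax, Bak1 and Bok, 1 point per liver, where the livers with the Mcl1 deletion lie at 64.9 to 96.1 TPM and those without it at 106 to 141 TPM.

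The genes most like each member in pattern were those with the smallest root mean square difference of centered log2 CPM over the 12 libraries, among 12558 candidates (12559 for Bcl2a1d). For Mcl1, these were Syde2 (0.43), Syt3 (0.49) and BC024139 (0.49), a distance several times that of the nearest gene for Bcl2l2, which was Nckipsd (0.08), followed by Tlk1 (0.09) and E130308A19Rik (0.10). Bcl2a1b was nearest to Gm42743 (0.24), Lilrb4a (0.27), a leukocyte receptor, and Lgals3 (0.27), which encodes galectin-3. Bcl2a1d was nearest to Gm49339 (0.34), Lilrb4a (0.34) and Ms4a4c (0.36). Bax was nearest to Myl6 (0.15), Cstb (0.16) and Nudcd2 (0.16), and Bok to Ankrd39 (0.18), Cyb5r1 (0.23) and Hpx (0.24).

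Other genes of the mitochondrial pathway were counted in 4 lists. Of 7 further BCL2 homologs, 4 could be tested and 2 rose in Mcl1Δhep livers, Bcl2a1a (above) and Bcl2l14 (log2 fold change 2.28, SE 0.75, adjusted p = 0.0416), while Bcl2l10, a prosurvival relative, had 0 counts in each library. The BH3-only genes, whose products neutralize prosurvival proteins, had 0 of 7 tested genes called by edgeR in Mcl1Δhep livers, with 2 at an unadjusted p under 0.05, while DESeq2 called 1, Bad, as higher. Bik (-0.71, SE 0.30, adjusted p = 0.365 on the Sting1-/- background) was not called there by either tool, and DESeq2 called it as lower over both backgrounds, where edgeR did not (-0.58, SE 0.21, adjusted p = 0.0701). Over both backgrounds, Bmf, a BH3-only gene, fell (log2 fold change -1.40, SE 0.40, adjusted p = 0.0319), from 19.9 ± 0.850 CPM in WT to 6.59 ± 4.42 in Mcl1Δhep livers. Bmf measured 8.90 to 32.5 CPM in Sting1-/- livers and 4.71 to 12.1 CPM in Mcl1Δhep Sting1-/- livers, which overlapped, and edgeR called it on neither background alone (adjusted p = 0.0658 and 0.441). The median log2 fold change of the BH3-only list in Mcl1Δhep livers was -0.23.

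Of 12 apoptosome and caspase genes, 2 rose and 1 fell in Mcl1Δhep livers, with a median of 0.08. Birc5, which encodes survivin and is expressed in dividing cells, rose by 3.88 (SE 0.50, adjusted p = 0.00132), and again by 2.83 (SE 0.46, adjusted p = 0.0268) on the Sting1-/- background. The 5 proliferation markers rose with it, summing to 10.1 to 11.1 CPM in WT and 41.9 to 143 CPM in Mcl1Δhep livers. Apaf1, the scaffold of the apoptosome, rose by 0.69 (SE 0.22, adjusted p = 0.0481), and Xiap, an inhibitor of caspases, fell by 0.65 (SE 0.16, adjusted p = 0.0158) in Mcl1Δhep livers and was at 0.02 (SE 0.15, adjusted p = 0.978) on the Sting1-/- background, where the difference between the 2 effects had an adjusted p of 0.281. Casp6 was at 0.38 (SE 0.17, adjusted p = 0.121) in Mcl1Δhep livers and at -0.48 (SE 0.17, adjusted p = 0.277) on the Sting1-/- background. Of 7 regulators of MCL1 and BAK stability, such as the ubiquitin ligase Huwe1 and the channel Vdac2, 0 passed the edgeR test on either background. In Mcl1Δhep livers 3 of them had an unadjusted p under 0.05 and DESeq2 called 2, Huwe1 and Trim17, while on the Sting1-/- background both counts were 0. Over both backgrounds, edgeR called 0 of the regulators, with 2 at an unadjusted p under 0.05. DESeq2 called 1 there, Vdac2, as lower.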

How the data were processed

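Total RNA-seq was analysed for 12 livers in 4 groups of 3, grouped by the GEO labels. The values deposited by the authors are unnormalised read counts for each gene, made per the labels with STAR and featureCounts on GRCm39; versions, annotation release, strand setting and handling of multi-mapping or overlapping reads are not given in the sources used here. Labels and methods name different RNA kits. Nothing states whether animals shared a litter or batch, so p-values measure the spread between these samples.

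Genes were filtered with filterByExpr, scaled by TMM and fitted with the edgeR 4.0.16 quasi-likelihood test (R 4.3.3, prior count 2) over all 4 groups, with Benjamini-Hochberg adjustment over 15070 genes and a threshold of 0.05. SE and 95% intervals are of the estimate without the prior count. DESeq2 1.42.0 was an alternative. CPM used TMM library sizes. TPM used GENCODE vM39 union exon lengths, found for 39533 of 40551 identifiers; the others held at most 0.101% of counts. Scripts were tested on simulated counts. No 2 libraries of a group agreed within sampling noise.

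Members and gene lists were chosen with earlier results of these data known. Of the pathway lists, the 2 genes with the lowest p in each direction per comparison with Mcl1 deletion were named; Bad, Huwe1, Vdac2 and Trim17 were named after their values were seen. One item that this rule names is not reported here. Marker lists covered leukocytes, macrophages, neutrophils, T and NK cells, B cells, hepatocytes, cholangiocytes, endothelial and stellate cells, skeletal muscle and proliferation. The A1 sum was added after seeing the data.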

Additional observations from a re-analysis of the deposited data

How the results depend on the processing

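Of 1060 refits of single members under other settings, 965 kept their direction and their side of the threshold. Of the rest, 48 lost a call, 15 gained one and 32 changed sign. Many of these refits were of changes not called as reported, which keep their side by staying uncalled. For Mcl1Δhep against WT, fits are counted here with 1 library left out and then under other settings. Mcl1 kept its call in 12 of 12 and 8 of 8 fits, and Bcl2a1b in 12 of 12 and 8 of 9. Bcl2a1d kept it in 9 of 12 and 4 of 7, and Bax in 9 of 12 and 5 of 8. Bcl2l2 kept it in 8 of 12 and 5 of 8. DESeq2 called 474 genes for Mcl1Δhep Sting1-/- against Sting1-/-, 671 genes and 1 member for Mcl1Δhep Sting1-/- against Mcl1Δhep, 49 for Sting1-/- against WT and 172 for the difference between backgrounds. With only the groups compared in the fit, 1178 genes and 2 members were called for Mcl1Δhep against WT, 17 genes for the same deletion on the Sting1-/- background and 2 genes for Sting1-/- against WT. With a term for Y-linked expression, the counts were 1511 genes for Mcl1Δhep against WT, 20 on the Sting1-/- background and 2 between the 2 groups with the deletion. With a term for the small-RNA share, they were 407 genes and 1 member for Mcl1Δhep against WT, and 1599 genes and 3 members (Mcl1, Bcl2a1b and Bcl2) for the mean effect. The cause of these shifts was not tested.

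Signs changed among changes that were not called. For Sting1-/- against WT, the Y-linked term gave Bcl2 -0.10, Bcl2a1b -0.015, Bcl2a1d 0.18 and Bok 0.18, and the small-RNA term gave Bcl2a1b -0.63 and Bax -0.47. For the difference between backgrounds, the Y-linked term gave Mcl1 0.012 and Bcl2 0.10, and the small-RNA term gave Mcl1 0.0062, Bcl2l1 0.30, Bcl2a1d 0.015, Bax 0.34, Bak1 0.049 and Bok 0.50.

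The Mcl1 share of prosurvival TPM, with the longest transcript as the length, was 67.8% in WT, 29.7% in Mcl1Δhep, 65.5% in Sting1-/- and 29.2% in Mcl1Δhep Sting1-/- livers. Without the A1 copies it was 75.8, 45.0, 73.9 and 39.8%, and the summed level of the other prosurvival genes was 32.4, 34.9, 28.3 and 36.6 TPM.

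With 1 library left out at a time, Mcl1Δhep against WT gave 1233 to 5232 genes and 2 to 7 members, and the same deletion on the Sting1-/- background 1 to 249 genes and 1 member in each fit. The ranges were 0 to 3108 genes and 0 to 3 members between the 2 groups with the deletion, 0 to 22 genes for Sting1-/- against WT, 1711 to 4267 genes and 2 to 7 members for the mean effect, and 0 to 1574 genes for the difference between backgrounds. The highest count came without Mcl1Δhep replicate 1 for each of these except Sting1-/- against WT (WT replicate 1) and the deletion on the Sting1-/- background (Mcl1Δhep Sting1-/- replicate 3). Among members that changed sign, Sting1-/- against WT ranged over -0.16 to 0.047 for Bcl2l2, -0.38 to 0.24 for Bcl2a1b, -0.69 to 0.51 for Bcl2a1d and -0.14 to 0.25 for Bax. Bcl2l2 ranged over -0.065 to 0.015 for the deletion on the Sting1-/- background, and Bcl2 over -0.24 to 0.26 between the 2 groups with the deletion. The difference between backgrounds ranged over -0.21 to 0.029 for Mcl1, -0.33 to 0.17 for Bcl2, -0.20 to 0.15 for Bcl2l1, -0.21 to 0.031 for Bak1 and -0.61 to 0.13 for Bok.

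Over all pairs of groups, same-numbered libraries correlated at -0.54 to 0.25, and 4 of 18 correlated best with their own number. Between Sting1-/- and Mcl1Δhep Sting1-/- livers, each same-numbered pair correlated best, at 0.068, 0.25 and 0.18. With 3 libraries per group, these correlations cannot show whether the replicate numbers pair the libraries. A replicate block gave 2591 genes and 4 members for Mcl1Δhep against WT, 129 and 1 on the Sting1-/- background, and 2254 and 4 for the mean effect. The calls it ended were Bcl2a1d for Mcl1Δhep against WT (adjusted p = 0.0502) and Bok for the mean effect (0.0647). Bcl2a1d had no value with a filter of at least 1 CPM in 3 libraries, nor with only the groups compared for the 2 comparisons with Sting1-/- livers. Depth limits Bcl2a1d most, at 1 to 51 counts.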
